A study of Homo sapiens with 9 samples.

Results

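Sterol and fatty acid synthesis was followed through 34 genes, out of 58920 listed in each count table. They were taken by symbol and comprise 8 genes of the mevalonate steps, 11 of the sterol steps, 9 of fatty acid synthesis and activation, 5 regulators and 1 sterol carrier. The mevalonate and sterol steps together make up the cholesterol arm of 19 genes, which was set against the fatty acid arm of 9 genes. All 34 genes had enough counts to be tested. LIM1215 is a human colorectal cancer cell line without RAS mutations that responds to cetuximab, an antibody that blocks the EGF receptor. Resistant populations, LIM1215-R1 and LIM1215-R2, were raised separately from it over months of rising cetuximab, and LIM1215-parental cells were passaged alongside without the drug. The resistant lines are mixed populations and not single clones. The study reports activating HRAS mutations in a subpopulation of each resistant line, a different mutation in each. RNA came from all 3 lines in serum-containing culture without treatment, with 3 libraries of poly(A) RNA per line, numbered 1 to 3 below, that the study calls technical replicates. The p-values therefore measure the spread between libraries of a line, and each resistant line stands for 1 selection.

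Cholesterol is built from acetyl-CoA, which is condensed and reduced to mevalonate, converted to isoprenoids, joined to squalene and then closed and trimmed to the sterol ring. Fatty acids are built from the same acetyl-CoA, then elongated, desaturated and activated. The SREBP transcription factors, encoded by SREBF1 and SREBF2, drive both routes. When sterols are plentiful, the INSIG proteins hold SCAP and its SREBP partner in the endoplasmic reticulum, which keeps the factor from being cut and reaching the nucleus, and SREBF2 is known mainly for the cholesterol genes and SREBF1 mainly for the fatty acid genes. Colorectal cancer cells use these routes for membrane lipid.

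The libraries held 13737416 to 18725014 counts, of which the 34 genes took 0.445% to 0.541%. A gene with 3 counts in a library stood at 0.160 to 0.218 CPM, which are counts scaled to the size of the library, so that all members but ACACA were well above the counting limit. Of 8 markers of colorectal epithelium, 7 were expressed in every library and KRT20 had 0 counts in all 9. The summed level of the 8 was 12224 to 12618 CPM in parental, 15518 to 15768 in LIM1215-R1 and 14063 to 14465 in LIM1215-R2 libraries. Among markers of other cells, COL1A2, PTPRC and CD3E had 0 counts, the 5 fibroblast markers summed to at most 3.01 CPM and the 3 endothelial markers to at most 0.722 CPM. The 4 leukocyte markers summed to 6.90 to 14.4 CPM, nearly all of it CD68, and the part of these differences in the results was not tested.

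Promoters were looked at for the sequences that SREBP factors and their partners bind, because genes of both arms are known targets. RefSeq windows on GRCh38.p14, from 250 bases before to 50 after a gene's start, were found for 30 of the 34 members. ACAT2, FDFT1, SQLE and FASN had none. Motifs were searched as exact letters on both strands, and no motif contains another. The NF-Y motif CCAAT was in 23 of 30 members, 76.7%, and in 41.8% of the 12577 tested genes with a window. It was in 14 of 16 cholesterol genes and 6 of 8 fatty acid genes. The SP1 motif GGGCGG was in 29 of 30 members, 96.7%, against 71.9% of tested genes. The sterol motif TCACNCCAC was in 1 member, SREBF2, and in 1.37% of tested genes, and the E-box TCACGTGA was in 1 member, INSIG1, and in 2.02%. A match describes letters and does not show binding, and a window without one says nothing about the factor. The promoters below belong to the gene that fell most in both resistant lines, to the gene that rose most, to SREBF2 and to INSIG1, with motifs in capitals. They stop where the GENCODE gene begins, except for INSIG1, where 30 bases around the E-box are shown. Positions are hg38 and each sequence reads along the gene's strand.
HMGCS1 (chr5:43313513-43313662, minus strand): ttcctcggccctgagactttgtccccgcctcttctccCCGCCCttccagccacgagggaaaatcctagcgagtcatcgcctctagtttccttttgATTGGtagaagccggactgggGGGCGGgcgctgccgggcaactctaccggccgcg
STARD4 (chr5:111512591-111512785, minus strand): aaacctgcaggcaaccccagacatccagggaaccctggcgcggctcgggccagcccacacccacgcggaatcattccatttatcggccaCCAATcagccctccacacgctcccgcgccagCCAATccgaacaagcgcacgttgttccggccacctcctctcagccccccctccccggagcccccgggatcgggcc
SREBF2 (chr22:41832855-41833104, plus strand): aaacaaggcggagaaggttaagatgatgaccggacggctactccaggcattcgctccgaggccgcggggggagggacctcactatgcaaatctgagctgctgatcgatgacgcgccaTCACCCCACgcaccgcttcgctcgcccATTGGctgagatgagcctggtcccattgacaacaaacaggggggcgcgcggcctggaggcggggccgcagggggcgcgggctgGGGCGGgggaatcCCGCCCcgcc
INSIG1 (chr7:155297811-155297840, plus strand): gccgggcaggcTCACGTGAtgcgggccccg

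ATTGG is CCAAT read on the other strand, and CCGCCC is GGGCGG. HMGCS1 and STARD4, which moved in opposite directions below, both carried the NF-Y motif before the start. For HMGCS1 this held in window 1 of 2, the one shown in part, while window 2 held only the SP1 motif there. STARD4 also held the SP1 motif, past the end of the shown stretch, as did both windows of HMGCS1.

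The first question was how each resistant line differed from parental cells. In LIM1215-R2, 15 of the 19 cholesterol genes were lower and none was higher at an adjusted p of at most 0.01 in edgeR's quasi-likelihood test. In LIM1215-R1, only 3 of the 19 were lower, and again none was higher. Counting both directions, 8 of the 34 genes passed in LIM1215-R1 and 23 in LIM1215-R2. Over all 19102 genes tested, the shares were 27.3% in LIM1215-R1, with 13.4% lower and 14% higher, and 23.8% in LIM1215-R2, with 11.6% lower and 12.3% higher. Both comparisons use the same 3 parental libraries. Every member changed by less than the absolute log2 fold change of 1.5 that the study asks of a differentially expressed gene, which 5.14% and 4.82% of tested genes reached with the adjusted p in LIM1215-R1 and LIM1215-R2, and 0.764% between the resistant lines. In bulk RNA, fewer cells expressing a gene and less RNA per cell cannot be told apart.

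**Figure D1:**
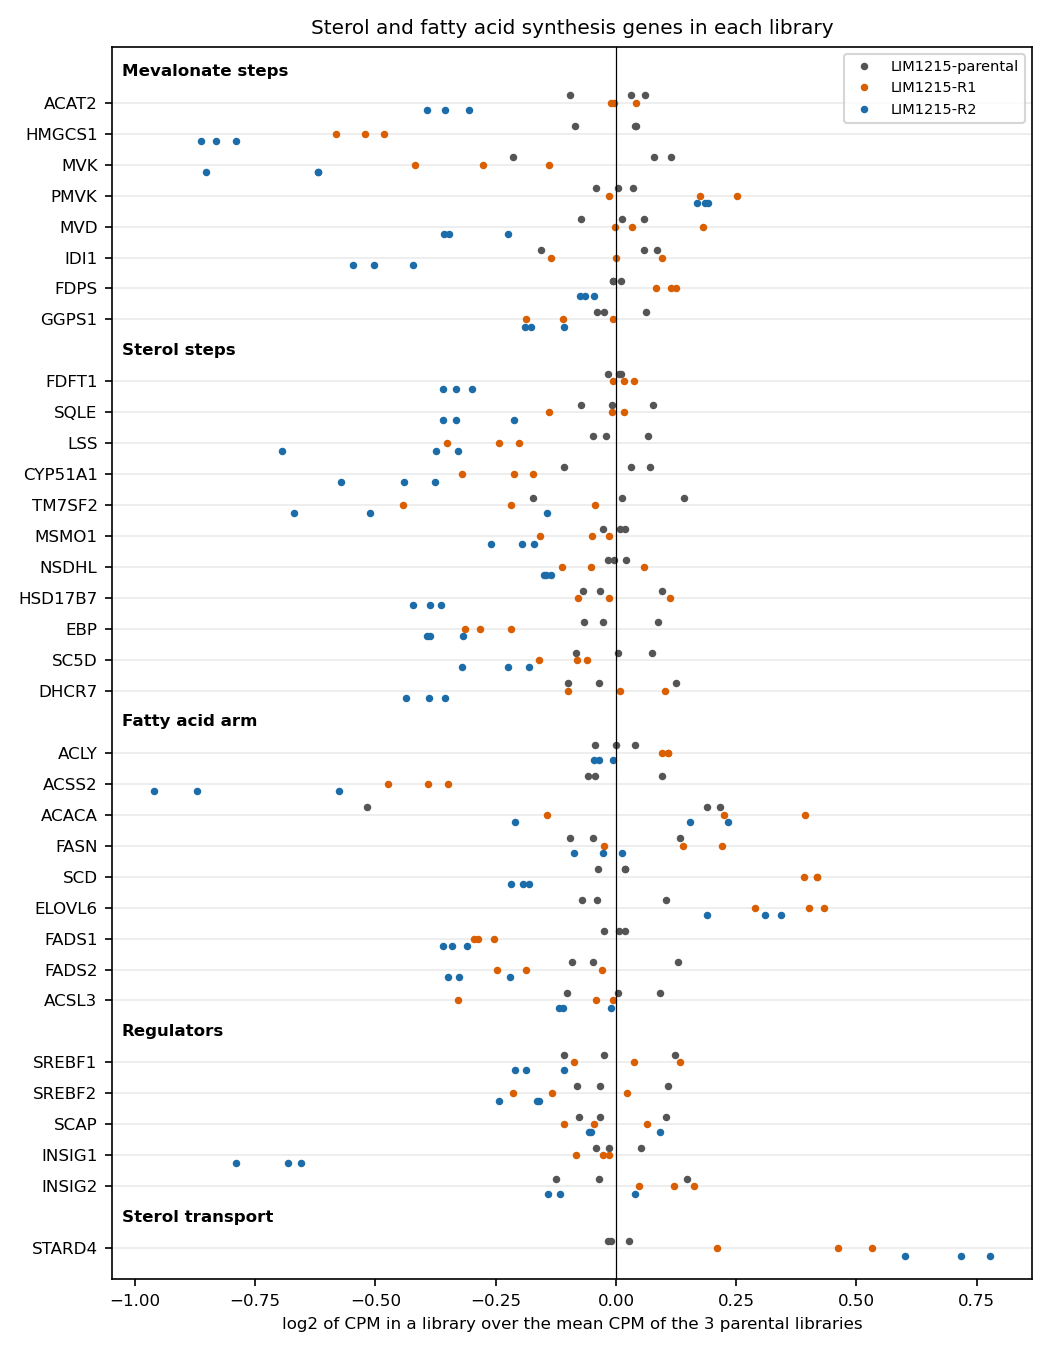
Level of each of the 34 genes in each of the 9 libraries, as log2 of the CPM over the mean CPM of the 3 parental libraries, with 1 point per library and genes ordered by role. Most cholesterol genes have their 3 LIM1215-R2 points left of all parental points, while LIM1215-R1 points mostly lie among the parental ones, and STARD4 lies to the right in both resistant lines.

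Among the mevalonate genes, HMGCS1, which makes HMG-CoA (chr5:43287470-43313512, hg38), was lower in both resistant lines. It stood at 426, 391 and 427 CPM in parental libraries, 297, 277 and 289 in LIM1215-R1 and 240, 233 and 228 in LIM1215-R2. The 3 groups did not overlap and followed each other in that order. The log2 fold change was -0.53 ± 0.05 (SE) in LIM1215-R1 (adjusted p = 2.45e-10) and -0.83 ± 0.05 in LIM1215-R2 (adjusted p = 2.55e-14). It fell by 30.6% and by 43.7%. Between the resistant lines it was -0.30 ± 0.05 (adjusted p = 3.23e-05).

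Of the other mevalonate genes, 4 passed the same test in LIM1215-R2 and none in LIM1215-R1. IDI1, the isomerase of the isoprenoid building block, stood at 152, 131 and 155 CPM in parental, 156, 133 and 146 in LIM1215-R1 and 109, 100 and 103 in LIM1215-R2 libraries. Parental and LIM1215-R1 values of IDI1 overlapped and all 3 LIM1215-R2 values lay below them. For IDI1 the log2 fold change was -0.01 ± 0.06 in LIM1215-R1 (adjusted p = 0.895) and -0.49 ± 0.06 in LIM1215-R2 (adjusted p = 3.39e-07). MVK, the kinase that acts on mevalonate, had 21.1, 20.6 and 16.8 CPM in parental, 17.7, 16.1 and 14.6 in LIM1215-R1 and 12.7, 12.7 and 10.8 in LIM1215-R2 libraries. Its fall in LIM1215-R2 was -0.69 ± 0.11 on the log2 scale (adjusted p = 8.97e-06). In LIM1215-R1 the value was -0.27 ± 0.10 (adjusted p = 0.0412), and it passed the threshold once parental replicate 3 was left out (adjusted p = 0.00889). ACAT2, which joins acetyl-CoA units, had 86.1, 77.2 and 84.3 CPM in parental, 82, 82.3 and 85 in LIM1215-R1 and 62.9, 64.5 and 66.8 in LIM1215-R2 libraries. That is a log2 fold change of -0.35 ± 0.06 in LIM1215-R2 (adjusted p = 1.58e-05). MVD, the decarboxylase that follows the kinases, fell by 0.31 ± 0.07 on the log2 scale in LIM1215-R2 (adjusted p = 0.000616).

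The remaining 3 mevalonate genes did not pass the test against parental cells. PMVK, the second kinase, averaged 22.3 ± 0.595 CPM (SD, n = 3) in parental and 25.3 ± 0.170 in LIM1215-R2 libraries, a log2 fold change of 0.18 ± 0.08 (adjusted p = 0.0943). It was the single cholesterol gene with a positive value in LIM1215-R2. FDPS, which makes farnesyl diphosphate, had 254, 257 and 254 CPM in parental, 270, 278 and 276 in LIM1215-R1 and 244, 242 and 247 in LIM1215-R2 libraries. These 3 groups did not overlap either, but the distances were small, with log2 fold changes of 0.10 ± 0.04 (adjusted p = 0.0488) in LIM1215-R1 and -0.06 ± 0.04 (adjusted p = 0.286) in LIM1215-R2. GGPS1, which makes the geranylgeranyl diphosphate used to anchor proteins in membranes and so lies off the sterol route, had a log2 fold change of -0.16 ± 0.06 in LIM1215-R2 (adjusted p = 0.0557).

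Of the 11 sterol genes, 10 passed as lower in LIM1215-R2, where 11.6% of all tested genes did. FDFT1, the squalene synthase and first committed step to sterols, had 264, 268 and 269 CPM in parental, 266, 270 and 274 in LIM1215-R1 and 208, 212 and 217 in LIM1215-R2 libraries. For FDFT1 the log2 fold change was 0.02 ± 0.04 in LIM1215-R1 (adjusted p = 0.82) and -0.33 ± 0.04 in LIM1215-R2 (adjusted p = 3.64e-07). Parental and LIM1215-R1 values of FDFT1 overlapped, while those of LIM1215-R2 lay below both by far more than the few CPM of spread within a line, and FDFT1 fell by 20.6% there. DHCR7, the reductase of the last step to cholesterol, had 161, 180 and 154 CPM in parental, 154, 177 and 166 in LIM1215-R1 and 122, 126 and 129 in LIM1215-R2 libraries. The LIM1215-R2 values of DHCR7 all lay below the other 6, with a log2 fold change of -0.39 ± 0.06 (adjusted p = 4.99e-06). SQLE, the epoxidase that oxidises squalene, had 115, 110 and 122 CPM in parental, 117, 105 and 115 in LIM1215-R1 and 99.8, 90.2 and 91.8 in LIM1215-R2 libraries, a log2 fold change of -0.30 ± 0.06 against parental cells (adjusted p = 0.000152).

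CYP51A1 and EBP were the sterol genes that also fell in LIM1215-R1. CYP51A1, which removes a methyl group from lanosterol, had 342, 302 and 333 CPM in parental, 289, 261 and 281 in LIM1215-R1 and 251, 240 and 219 in LIM1215-R2 libraries. The groups lay in that order without overlap. On the log2 scale CYP51A1 changed by -0.23 ± 0.05 in LIM1215-R1 (adjusted p = 0.001, and 0.0128 without parental replicate 1) and -0.46 ± 0.05 in LIM1215-R2 (adjusted p = 8.78e-08). EBP, the isomerase that moves the ring's double bond, had 106, 118 and 109 CPM in parental, 91.2, 95.4 and 89.3 in LIM1215-R1 and 84.9, 84.5 and 89 in LIM1215-R2 libraries. Both resistant lines lay below parental cells, with log2 fold changes of -0.27 ± 0.05 (adjusted p = 0.000252) and -0.37 ± 0.05 (adjusted p = 5.3e-06). In GENCODE 44, both genes, like GGPS1, overlap unnamed protein-coding loci on the same strand. The authors' counting may have split the reads there.

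Fewer counts stood behind LSS, HSD17B7 and TM7SF2. LSS, the cyclase that closes the sterol ring, had 16.1, 15.8 and 17.1 CPM in parental, 14.2, 12.8 and 13.8 in LIM1215-R1 and 13, 12.6 and 10.1 in LIM1215-R2 libraries. The log2 fold change was -0.46 ± 0.10 in LIM1215-R2 (adjusted p = 0.000882), and without its lowest library, LIM1215-R2 replicate 3, -0.36 (adjusted p = 0.0115). Of the LSS transcript, 88.19% has a near-identical copy on an alternate sequence of hg38, so reads could have been lost as ambiguous. HSD17B7, a reductase of the demethylation steps, had 16.1, 17.6 and 15.7 CPM in parental, 16.3, 17.8 and 15.6 in LIM1215-R1 and 12.8, 12.3 and 12.6 in LIM1215-R2 libraries. Its log2 fold change of -0.39 ± 0.10 in LIM1215-R2 (adjusted p = 0.00213) missed the threshold without parental replicate 2 (adjusted p = 0.0122) or LIM1215-R2 replicate 2 (adjusted p = 0.0128). TM7SF2, a sterol reductase, was the one called gene whose libraries overlapped, at 29.2, 36.3 and 33.2 CPM in parental and 23.1, 20.7 and 29.8 in LIM1215-R2. Its log2 fold change of -0.42 ± 0.11 (adjusted p = 0.00319) was lost without parental replicate 2 or 3 or LIM1215-R2 replicate 1 or 2 (adjusted p = 0.0125, 0.0137, 0.029 and 0.0517), and it shares its strand with VPS51 in GENCODE 44.

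The 3 other sterol genes changed least in LIM1215-R2. MSMO1, a methyl oxidase, averaged 129 ± 2.50, 123 ± 6.20 and 112 ± 3.51 CPM (SD, n = 3) in parental, LIM1215-R1 and LIM1215-R2 libraries. Its log2 fold change of -0.21 ± 0.05 in LIM1215-R2 (adjusted p = 0.00241) missed the threshold without parental replicate 1 or 3 or LIM1215-R2 replicate 2 (adjusted p = 0.0115, 0.0149 and 0.026). SC5D, a desaturase of the ring, fell from 99.6 ± 5.24 to 84.4 ± 4.12 CPM in LIM1215-R2, a log2 fold change of -0.24 ± 0.06 (adjusted p = 0.00139). Without parental replicate 1 or LIM1215-R2 replicate 3 the adjusted p of SC5D was 0.0159 and 0.0146. NSDHL, the dehydrogenase of the demethylation steps, averaged 34.5 ± 0.420 and 31.2 ± 0.130 CPM, and its log2 fold change of -0.14 ± 0.07 did not pass (adjusted p = 0.128), although its libraries did not overlap.

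**Figure D2:**
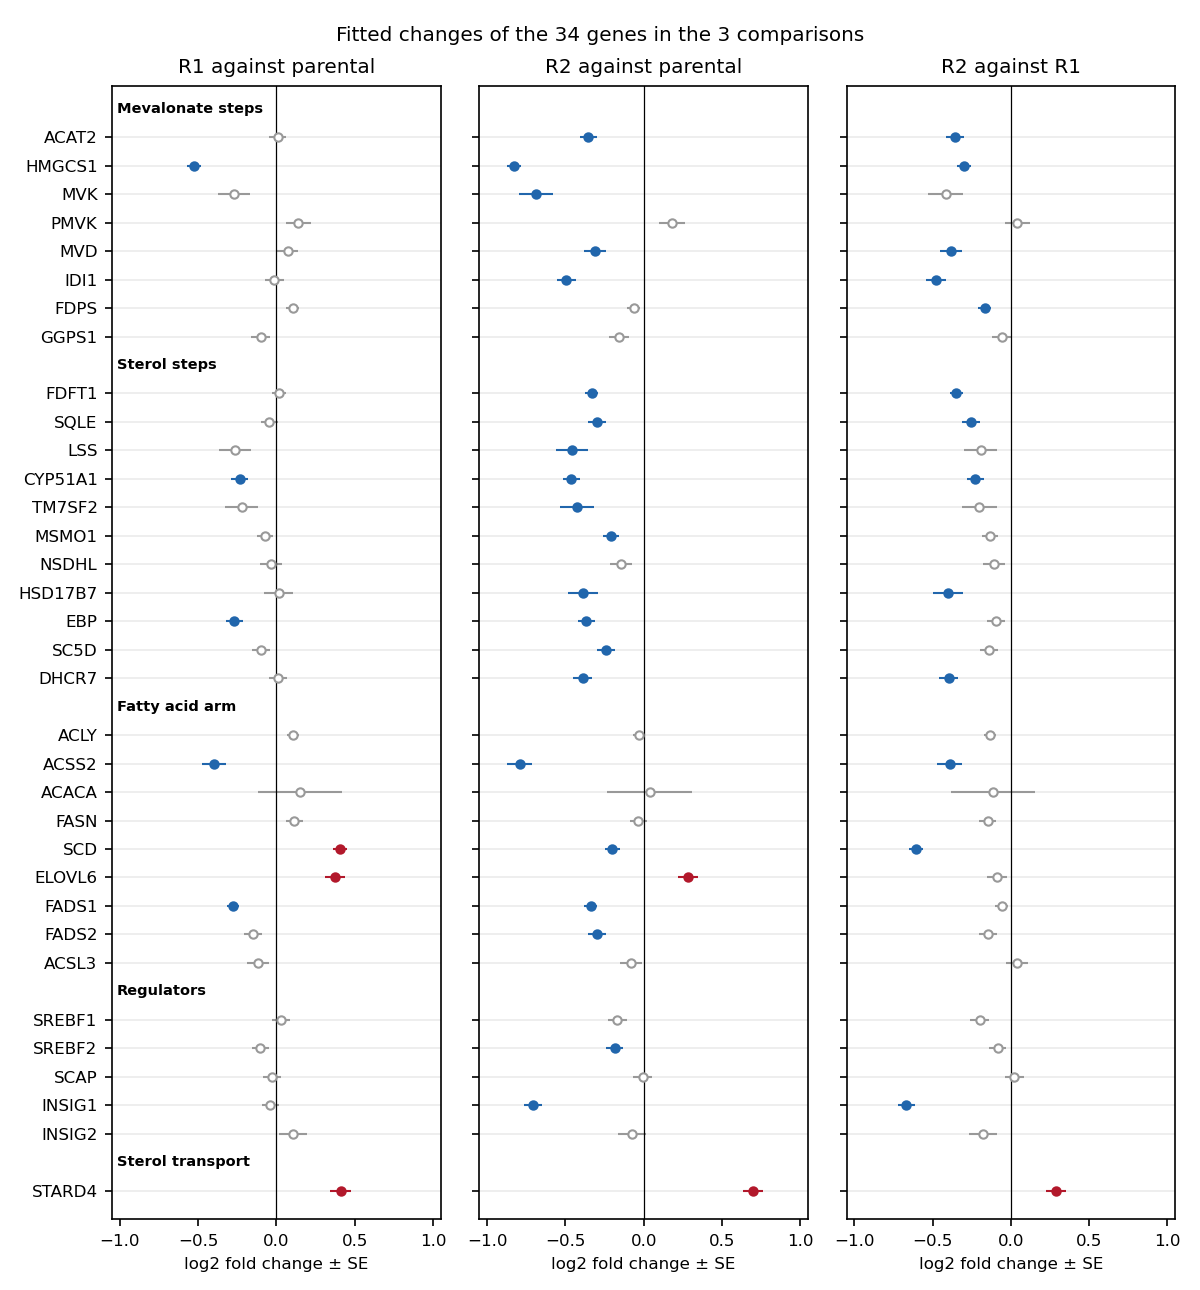
Fitted log2 fold change of each of the 34 genes for each resistant line set against parental cells (left, middle) and for LIM1215-R2 set against LIM1215-R1 (right), with bars for the SE and filled points for an adjusted p of at most 0.01 (blue lower, red higher). The filled blue points of the cholesterol arm number 3, 15 and 10 in the 3 panels, and no filled red point stands in that arm.

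The fatty acid arm went in both directions. Of its 9 genes, LIM1215-R1 had 2 higher and 2 lower, and LIM1215-R2 had 1 higher and 4 lower. FASN, the fatty acid synthase itself, had 683, 801 and 706 CPM in parental, 718, 850 and 804 in LIM1215-R1 and 716, 687 and 736 in LIM1215-R2 libraries. All 3 groups overlapped, with log2 fold changes of 0.12 ± 0.05 (adjusted p = 0.0997) and -0.03 ± 0.05 (adjusted p = 0.705). In LIM1215-R1 the value of FASN passed without parental replicate 2 (0.19, adjusted p = 0.00264) or LIM1215-R1 replicate 1 (0.18, adjusted p = 0.00545). ACLY, which supplies cytosolic acetyl-CoA from citrate, had 432, 444 and 419 CPM in parental, 461, 465 and 465 in LIM1215-R1 and 430, 421 and 418 in LIM1215-R2 libraries, and passed the test in neither line (adjusted p = 0.039 and 0.654). ACACA, the carboxylase that makes malonyl-CoA, had 1.01 to 1.90 CPM and 226 counts in all libraries together. Its whole transcript has a copy on an alternate sequence of hg38, so the low value may not be its level, and no direction was drawn from it.

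ACSS2 fell most in the arm. It makes acetyl-CoA from acetate and had 58.7, 65.3 and 59.3 CPM in parental, 44, 48 and 46.6 in LIM1215-R1 and 33.4, 31.4 and 41 in LIM1215-R2 libraries. The groups of ACSS2 followed each other downwards without overlap. Its log2 fold change was -0.40 ± 0.08 in LIM1215-R1 (adjusted p = 0.00012) and -0.79 ± 0.08 in LIM1215-R2 (adjusted p = 4.12e-09). It fell by 24.3% and by 42.2%.

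SCD, the desaturase that makes monounsaturated fatty acids (chr10:100347233-100364826, hg38), moved in opposite directions. It had 132, 127 and 132 CPM in parental, 171, 174 and 174 in LIM1215-R1 and 115, 114 and 112 in LIM1215-R2 libraries. The 3 groups stood well apart from each other. SCD rose by 32.5% in LIM1215-R1, or 0.41 ± 0.05 on the log2 scale (adjusted p = 6.43e-08). In LIM1215-R2 it fell by 13.0%, a log2 fold change of -0.20 ± 0.05 (adjusted p = 0.00147, and 0.0104 without parental replicate 3). ELOVL6, the elongase that acts just before SCD, had 55.2, 50 and 48.9 CPM in parental, 67.8, 62.8 and 69.3 in LIM1215-R1 and 65.2, 63.7 and 58.6 in LIM1215-R2 libraries. Both resistant lines lay above parental cells, by 0.38 ± 0.06 (adjusted p = 3.57e-05) and 0.28 ± 0.07 (adjusted p = 0.00106) on the log2 scale. In LIM1215-R2, ELOVL6 missed the threshold without parental replicate 3 (adjusted p = 0.0133) or LIM1215-R2 replicate 1 (adjusted p = 0.0122).

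FADS1 and FADS2, neighbours on chromosome 11 that desaturate polyunsaturated fatty acids, were lower. FADS1 had 373, 370 and 362 CPM in parental, 302, 309 and 300 in LIM1215-R1 and 291, 297 and 287 in LIM1215-R2 libraries. FADS1 had a log2 fold change of -0.28 ± 0.04 (adjusted p = 3.02e-06) in LIM1215-R1 and -0.34 ± 0.04 (adjusted p = 1.28e-07) in LIM1215-R2, with no overlap with parental cells in either. FADS2 had 232, 270 and 239 CPM in parental, 208, 242 and 217 in LIM1215-R1 and 194, 197 and 212 in LIM1215-R2 libraries. It fell in LIM1215-R2 by 0.30 ± 0.06 on the log2 scale (adjusted p = 0.000178). In LIM1215-R1, FADS2 stood at -0.15 ± 0.06 (adjusted p = 0.0443), and passed without LIM1215-R1 replicate 2 (-0.21, adjusted p = 0.0032). FADS2 shares its strand with FEN1 in GENCODE 44. ACSL3, which activates fatty acids with CoA, averaged 79.7 ± 5.28, 73.5 ± 8.73 and 75.5 ± 3.23 CPM (SD, n = 3) and did not pass the test in either line.

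Of the regulators, INSIG1 fell in LIM1215-R2. INSIG1, the sterol-sensing anchor of SCAP and itself a target of the SREBP factors (chr7:155297776-155310235, hg38), had 105, 107 and 112 CPM in parental, 107, 106 and 102 in LIM1215-R1 and 68.6, 62.5 and 67.3 in LIM1215-R2 libraries. Parental and LIM1215-R1 values overlapped, and all LIM1215-R2 values were far below both. The log2 fold change was -0.04 ± 0.05 (adjusted p = 0.632) in LIM1215-R1 and -0.71 ± 0.05 (adjusted p = 3.43e-11) in LIM1215-R2, where the gene fell by 38.7%. INSIG2, the second anchor, averaged 18.9 ± 1.84, 20.4 ± 0.835 and 18.0 ± 1.24 CPM (SD, n = 3) in the same order and did not pass the test in either line. SCAP, the escort of the SREBP factors, stayed between 95 and 110 CPM in all 9 libraries.

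The genes of the factors themselves changed little. SREBF2 had 349, 385 and 338 CPM in parental, 308, 363 and 326 in LIM1215-R1 and 302, 320 and 319 in LIM1215-R2 libraries. Its log2 fold change of -0.19 ± 0.05 in LIM1215-R2 (adjusted p = 0.00821) lay at the threshold. DESeq2's Wald test gave SREBF2 an adjusted p of 0.0131, and it was also past 0.01 without parental replicate 1 or 2 (0.0137 and 0.0571), LIM1215-R1 replicate 3 (0.0151) or any 1 LIM1215-R2 library (0.0638, 0.0234 and 0.0151). In LIM1215-R1, SREBF2 stood at -0.10 ± 0.05 (adjusted p = 0.151), and at -0.17 (adjusted p = 0.00981) without LIM1215-R1 replicate 2. SREBF1 had 132, 155 and 140 CPM in parental, 134, 156 and 146 in LIM1215-R1 and 123, 125 and 132 in LIM1215-R2 libraries. It did not pass in LIM1215-R1 (adjusted p = 0.754) or LIM1215-R2 (-0.17 ± 0.06, adjusted p = 0.0309), but passed in the latter once trends with GC content and transcript length were removed (-0.21, adjusted p = 8.01e-06).

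STARD4, which carries sterol between membranes (chr5:111496033-111512590, hg38), was the sole gene outside the fatty acid arm that rose. It had 85.1, 84.7 and 87.4 CPM in parental, 124, 99.2 and 118 in LIM1215-R1 and 147, 141 and 130 in LIM1215-R2 libraries. The order was the reverse of that of HMGCS1, again with no overlap between the groups. On the log2 scale STARD4 rose by 0.41 ± 0.07 in LIM1215-R1 (adjusted p = 1.37e-05) and 0.70 ± 0.07 in LIM1215-R2 (adjusted p = 1.49e-09), an increase of 32.9% and 62.2%.

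**Figure D3:**
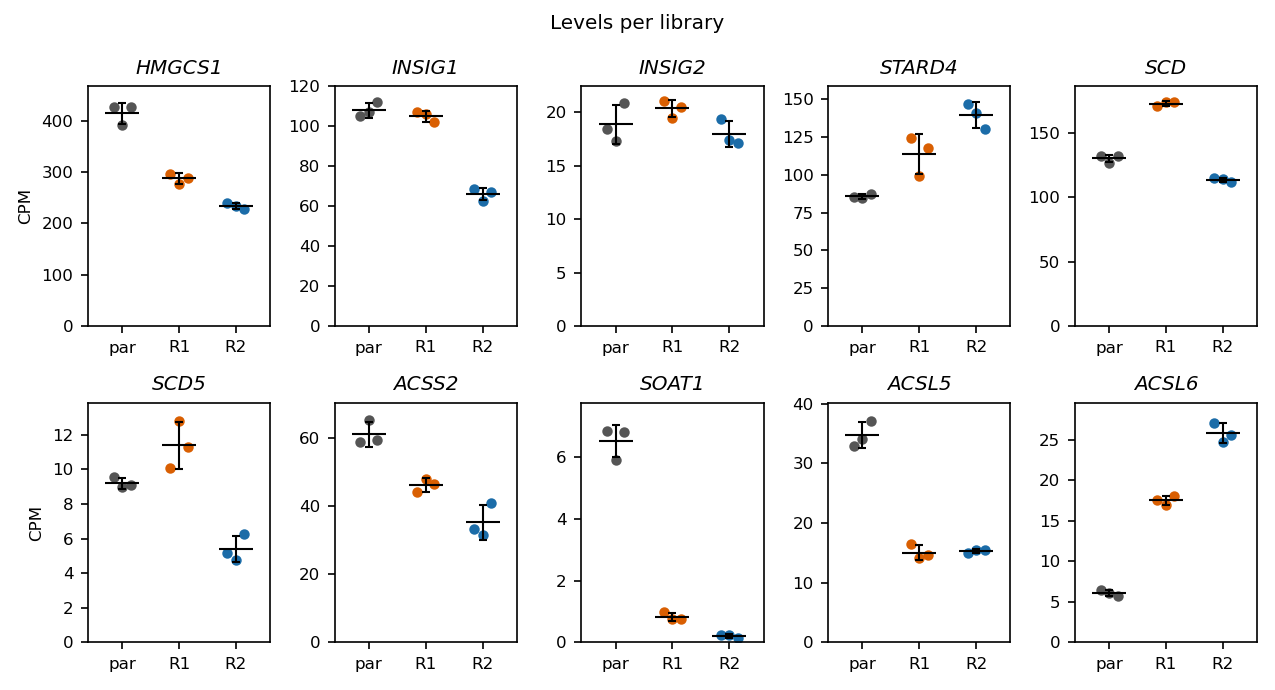
CPM per library (points) with the mean and SD of the 3 libraries per line, on axes that start at 0, for 6 members and for SCD5, SOAT1, ACSL5 and ACSL6. HMGCS1 and ACSS2 step down and STARD4 steps up from parental (par) over LIM1215-R1 to LIM1215-R2, INSIG1 drops in LIM1215-R2 alone, and SCD peaks in LIM1215-R1.

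The lines were then compared with each other directly. In LIM1215-R2 against LIM1215-R1, 14 of the 34 genes differed, 13 lower and 1 higher, where 7.16% of all tested genes differed, 3.77% lower and 3.39% higher. The 13 comprised 10 of the 19 cholesterol genes, ACSS2 and SCD of the fatty acid arm, and INSIG1. Among the genes that passed, the largest differences were those of INSIG1 at -0.67 ± 0.05 (adjusted p = 1.09e-09), SCD at -0.61 ± 0.05 (adjusted p = 3.59e-10), IDI1 at -0.48 ± 0.06 (adjusted p = 3.74e-06), DHCR7 at -0.40 ± 0.06 (adjusted p = 2.05e-05) and HSD17B7 at -0.40 ± 0.10 (adjusted p = 0.00475). ACSS2 came next at -0.39 ± 0.08 (adjusted p = 0.00118), but did not pass without LIM1215-R2 replicate 1 or 2 (adjusted p = 0.0192 and 0.026). MVD at -0.38 ± 0.07, ACAT2 at -0.36 ± 0.06 and FDFT1 at -0.35 ± 0.04 followed (adjusted p = 0.000227, 6.13e-05 and 1.22e-06). MVK at -0.42 ± 0.11 missed the threshold (adjusted p = 0.0109), and passed without parental replicate 2 or 3 (0.00628 and 0.00727), when genes of low counts were kept (0.00186), with DESeq2's size factors (0.00988) or with the 6 compared libraries alone (0.00679).

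Several of these differences depended on single libraries. Without LIM1215-R2 replicate 2, 8 of the 34 genes passed in place of 14. The share of all tested genes passing in that fit was not counted. STARD4 at 0.29 ± 0.06 (adjusted p = 0.00274) was lost without LIM1215-R1 replicate 2 (0.20, adjusted p = 0.0226), LIM1215-R2 replicate 1 (0.25, adjusted p = 0.0406) or LIM1215-R2 replicate 2 (0.28, adjusted p = 0.0251), and at 0.13 (adjusted p = 0.0232) once trends with GC content and transcript length were removed. SQLE at -0.26 ± 0.06 (adjusted p = 0.00313) and CYP51A1 at -0.23 ± 0.05 (adjusted p = 0.00478) were each lost without LIM1215-R1 replicate 1 or 3 or LIM1215-R2 replicate 2 or 3, with adjusted p of 0.0123, 0.0289, 0.0385 and 0.0167 for SQLE and 0.0189, 0.0341, 0.0247 and 0.0455 for CYP51A1. HSD17B7 was lost without LIM1215-R1 replicate 2 (0.0307) or any 1 LIM1215-R2 library (0.0203, 0.03 and 0.0135). FDPS at -0.17 ± 0.04 (adjusted p = 0.00668) was lost without any 1 library other than parental replicate 2 and LIM1215-R1 replicate 1, with adjusted p between 0.0102 and 0.0443. FDPS was also lost when scaled by total counts (-0.15, adjusted p = 0.0146) and with the GC content and length trends removed (-0.079, adjusted p = 0.103). FASN at -0.15 ± 0.05 (adjusted p = 0.0704) passed without LIM1215-R1 replicate 1 (-0.21, adjusted p = 0.00386), as did SREBF1 at -0.20 ± 0.06 (adjusted p = 0.0263) without that library (adjusted p = 0.00389) or parental replicate 2 (adjusted p = 0.00731). FASN and SREBF1 also passed when genes of low counts were kept (adjusted p = 0.00488 and 0.00395) and with the trends removed (-0.14 and -0.16, adjusted p = 0.000322 and 0.00192). Removing the trends also brought MSMO1, SC5D, ACLY, ELOVL6 and INSIG2 past the threshold, all lower in LIM1215-R2 (-0.20, -0.30, -0.13, -0.20 and -0.30, adjusted p = 0.000205, 5.11e-07, 0.00152, 0.00326 and 0.00659), so that 19 of the 34 genes passed, where 9.66% of all tested genes did. ACLY passed in DESeq2's Wald test as well (adjusted p = 0.009).

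Set against each other, the arms differed more in LIM1215-R2 than in LIM1215-R1, given here as medians with no test. The median log2 fold change of the 19 cholesterol genes was -0.04 in LIM1215-R1 and -0.35 in LIM1215-R2, against -0.01 and 0.00 over all genes tested. That of the 9 fatty acid genes was 0.10 and -0.08. The distance between the arms was -0.15 in LIM1215-R1 and -0.27 in LIM1215-R2. Without ACACA and LSS, whose counts are uncertain, it was -0.03 and -0.20. Without ACACA alone it was -0.036 and -0.21, and without LSS alone -0.14 and -0.26. The median of the 9 fatty acid genes in LIM1215-R1 was the value of ACLY, 0.10, and the next lower value was that of ACSL3, -0.12. Leaving out any gene above ACLY would therefore change the distance there as leaving out ACACA did. The distance in LIM1215-R1 was also smaller without parental replicate 2, at -0.057, LIM1215-R1 replicate 2, at -0.098, or LIM1215-R1 replicate 1, at -0.10. The fatty acid median then fell to -0.025, 0.061 and 0.029. Without parental replicate 1 or 3 the distance was -0.12 each time, and without LIM1215-R1 replicate 3 it was -0.18. Between the resistant lines the medians were -0.23 for the cholesterol arm and -0.13 for the fatty acid arm.

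The cholesterol arm summed to 2309 to 2389 CPM in parental, 2123 to 2183 in LIM1215-R1 and 1791 to 1829 in LIM1215-R2 libraries, with no overlap. Without HMGCS1, the gene of that arm with the most CPM in parental cells, the sums were 1918 to 1962, 1846 to 1894 and 1558 to 1589 CPM. The fatty acid arm summed to 2048 to 2203, 2053 to 2216 and 1886 to 1940 CPM, and without FASN to 1347 to 1402, 1336 to 1366 and 1199 to 1209 CPM. Parental and LIM1215-R1 libraries overlapped in the fatty acid arm with and without FASN, and LIM1215-R2 libraries lay lower in both arms. In single genes, all 3 LIM1215-R2 libraries lay below all 3 parental ones for 17 of the 19 cholesterol genes and 4 of the 9 fatty acid genes, which held for 21.6% of tested genes. In LIM1215-R1 this was so for 4 of 19 and 2 of 9 genes, against 22.4% of tested genes.

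**Figure D4:**
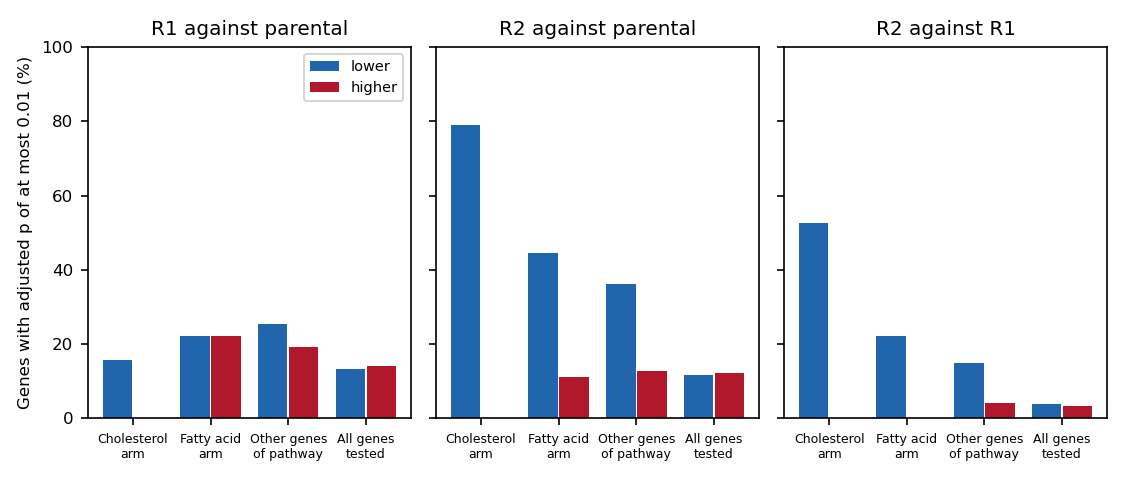
Share of genes (%) with an adjusted p of at most 0.01 that were lower (blue) or higher (red) in each of the 3 comparisons, for the 19 genes of the cholesterol arm, the 9 of the fatty acid arm, 47 other genes of lipid handling and all 19102 genes tested. The cholesterol arm has no red bar, and its blue bar is 15.8%, 78.9% and 52.6% against 13.4%, 11.6% and 3.77% of all genes tested.

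Levels were compared between genes per kilobase of the canonical GENCODE transcript. In parental cells FDPS was the most abundant at 180.1 CPM per kilobase, followed by FDFT1 at 131.2, CYP51A1 at 103.2, ACLY at 100.5 and EBP at 98.67. FASN stood at 86.27 and HMGCS1 at 77.55 on this scale. The lowest were MVK at 6.886, INSIG2 at 5.296, LSS at 3.339 and ACACA at 0.1446 CPM per kilobase. FDPS and FDFT1 ranked first and second in all 3 lines. STARD4 ranked 26 among the 34 genes in parental cells, 20 in LIM1215-R1 and 16 in LIM1215-R2, with 18.51, 24.6 and 30.03 CPM per kilobase. INSIG1 stood at rank 16 in parental and LIM1215-R1 and 21 in LIM1215-R2, and ACSS2 went from rank 22 to 26 and 28.

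The rest of the pathway was covered by 52 further genes, of which 47 could be tested. Of 19 genes of sterol handling and sensing, each resistant line had 2 higher and 5 lower than parental cells. Of 28 genes of fatty acid handling, LIM1215-R1 had 7 higher and 7 lower, and LIM1215-R2 had 4 higher and 12 lower. Over all genes tested, 14% were higher and 13.4% lower in LIM1215-R1, and 12.3% and 11.6% in LIM1215-R2. Some changes among the 47 were larger than in any of the 34 genes. SOAT1, which esterifies cholesterol for storage, had 6.85, 5.92 and 6.83 CPM in parental, 0.981, 0.753 and 0.751 in LIM1215-R1 and 0.238, 0.248 and 0.131 in LIM1215-R2 libraries. The LIM1215-R2 values of SOAT1 were at the level of a few counts per library. Its log2 fold change was -2.97 ± 0.22 (adjusted p = 9.03e-12) and -4.93 ± 0.28 (adjusted p = 5.69e-14), and -1.96 ± 0.42 between the resistant lines (adjusted p = 0.00175).

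Among relatives of the fatty acid genes, ACSL6 and ACSL5, which activate fatty acids as ACSL3 does, moved apart. ACSL6 had 6.43, 6.14 and 5.73 CPM in parental, 17.5, 16.9 and 18.1 in LIM1215-R1 and 27.1, 24.7 and 25.6 in LIM1215-R2 libraries, log2 fold changes of 1.52 ± 0.10 (adjusted p = 2.09e-12) and 2.08 ± 0.10 (adjusted p = 9.89e-16). ACSL5 had 32.9, 34 and 37.1 CPM in parental, 16.4, 14.1 and 14.6 in LIM1215-R1 and 15, 15.5 and 15.5 in LIM1215-R2 libraries, log2 fold changes of -1.20 ± 0.08 and -1.18 ± 0.08 (adjusted p = 4.02e-12 and 6.12e-12). Neither gene's parental libraries overlapped with a resistant line. SCD5, the paralogue of SCD, had 9.56, 8.96 and 9.09 CPM in parental, 10.1, 12.8 and 11.3 in LIM1215-R1 and 5.17, 4.77 and 6.27 in LIM1215-R2 libraries. As for SCD, LIM1215-R1 libraries of SCD5 stood highest and LIM1215-R2 lowest, with log2 fold changes of 0.31 ± 0.12 (adjusted p = 0.0465) and -0.77 ± 0.13 (adjusted p = 4.12e-05) against parental cells and -1.08 ± 0.13 between the resistant lines (adjusted p = 1.19e-06).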

How the data were processed

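Poly(A) RNA of 3 lines with 3 libraries each was sequenced with a stranded kit. The authors used STAR on hg38 and HTSeq 0.9.1 for gene counting and deposited raw counts for each library. The gene annotation is not given in the sources used here. Libraries were grouped by line from the sample titles.

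The 34 members and all lists were chosen with earlier results of these data known. The 19102 genes whose counts summed to at least 10 were fitted in edgeR 4.0.16 (R 4.3.3, limma 3.58.1) with TMM scaling and a quasi-likelihood model of the 3 lines over all 9 libraries. Benjamini-Hochberg adjustment covered all genes tested, and a gene passed at an adjusted p of at most 0.01. SEs came from the test statistic. CPM used TMM factors. The script was tested on simulated data. Totals of 13737416 to 18725014 counts limit precision by counting error, most for genes of few counts such as ACACA. Libraries of a line also varied beyond counting error, with a common coefficient of variation of 4.92% in the fit.

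Alternatives were DESeq2 1.42.0 and its size factors, total counts, other filters and thresholds, the 6 compared libraries alone, a replicate block, each library left out and, added after seeing the data, removal of trends with GC content and length and leaving out ACACA, LSS or both. Copies of member transcripts were sought with minimap2 2.31 on hg38 at 99% identity, and overlaps and lengths came from GENCODE. Promoters were matched by symbol in RefSeq. All members were named, and of the 52 other genes, those that reached the study's fold and p limits, or failing 4 of these, the 4 with the largest changes among those passing. Some genes of the pathway are not reported here.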

Additional observations from a re-analysis of the deposited data

Results flagged for a closer look

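These 14 genes are listed because the same contrast, resistant against parental, differed between LIM1215-R1 and LIM1215-R2 in a direct edgeR quasi-likelihood test (adjusted p of at most 0.01). Values are log2 fold changes of LIM1215-R2 against LIM1215-R1. In the mevalonate steps they were -0.48 for IDI1, -0.38 for MVD, -0.36 for ACAT2, -0.3 for HMGCS1 and -0.17 for FDPS. In the sterol steps they were -0.4 for DHCR7, -0.4 for HSD17B7, -0.35 for FDFT1, -0.26 for SQLE and -0.23 for CYP51A1. The other 4 were SCD at -0.61, ACSS2 at -0.39, INSIG1 at -0.67 and STARD4 at 0.29. HMGCS1, CYP51A1, ACSS2 and STARD4 had moved in the same direction in both resistant lines against parental cells and further in LIM1215-R2, SCD in opposite directions. The calls of FDPS, SQLE, CYP51A1, HSD17B7, ACSS2 and STARD4 were each lost when 1 of several libraries was left out, and those of FDPS and STARD4 also with trends of GC content and length removed.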

How the results depend on the processing

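Over 102 gene comparisons and 1836 alternative values, 1747 kept their side of the threshold, 53 were lost, 36 gained and 0 reversed. The 1747 include 47 values, past the threshold in neither fit, that changed sign. At a log2 fold change of at least 1, 0 members passed in any comparison or arm. At an adjusted p of at most 0.05, 13 members passed in LIM1215-R1 against parental, where 36.4% of all tested genes passed (18.1% higher, 18.3% lower). Of the 13, 8 were lower, 5 of these 8 in the cholesterol arm. The other 5 were higher, with FDPS of the cholesterol arm among them. With GC content and length trends removed (known for 86.3% of genes tested), 13 passed there, 9 lower and 5 of these in the cholesterol arm, where 31.8% of tested genes passed (14.9% lower). MVK, TM7SF2, SREBF2 and FADS2 were added as lower (-0.36, -0.37, -0.12 and -0.22, adjusted p = 0.00264, 9.83e-05, 0.00333 and 1.07e-06) and ACLY as higher (0.10, adjusted p = 0.00415). Between the resistant lines 0 members were then higher and 5 fatty acid genes passed, where 9.66% of all tested genes passed (3.94% higher). Deviations of same-numbered libraries had correlations of -0.0186 to 0.0984, against -0.106 to 0.0648 for different numbers. Of 9 libraries, 5 correlated highest with their own number, so the replicate numbers paired the libraries weakly at most. With a replicate block, 4 fatty acid genes passed between the resistant lines, where 10.7% of all tested genes passed. The block added FASN, ACLY, SREBF1 and MVK there (adjusted p = 0.00658, 0.00758, 0.00211 and 0.00112). It also added SREBF1 in LIM1215-R2 (0.00447) and FADS2 in LIM1215-R1 (0.00521), where 27.2% and 30.6% of tested genes passed.

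Median log2 fold changes also moved. In LIM1215-R1 the cholesterol arm was -0.079 with total counts, and the fatty acid arm 0.069 with total counts, 0.071 with the trends removed and -0.0083 without ACACA, with or without LSS. The distance of the arms was -0.11 with the trends removed and -0.030 without ACACA and LSS (-0.036 without ACACA alone, -0.14 without LSS alone). In LIM1215-R2 the cholesterol arm was -0.37 with total counts and -0.34 with the trends removed, and without ACACA the fatty acid arm was -0.14 and the distance -0.21, or -0.20 without LSS too. Between the resistant lines the cholesterol arm was -0.21 with total counts, -0.21 with DESeq2's shrunken values, -0.26 with the trends removed, -0.24 without GGPS1 and -0.24 without LSS, with or without ACACA. The causes were not tested.

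Leaving out 1 library at a time gave 8 to 16 members called between the resistant lines (8 to 15 lower, 0 to 1 higher, 6 to 11 lower in the cholesterol arm, 1 to 3 in the fatty acid arm), 7 to 10 in LIM1215-R1 (3 to 4 higher, 4 to 7 lower, 2 to 4 lower in the cholesterol arm) and 19 to 23 in LIM1215-R2 (1 to 2 higher, 17 to 21 lower, 12 to 15 lower in the cholesterol arm, 3 to 5 in the fatty acid arm). In LIM1215-R1, LIM1215-R2 and between them, medians then ran from -0.082 to -0.037, -0.36 to -0.33 and -0.27 to -0.22 for the cholesterol arm, -0.025 to 0.10, -0.14 to -0.057 and -0.17 to -0.094 for the fatty acid arm and -0.18 to -0.057, -0.29 to -0.19 and -0.17 to -0.068 for their distance. The share of all tested genes passing was not counted in the fits without 1 library, so these ranges describe the members alone. ACACA, at 226 counts in all, is limited by depth.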

Other observations

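MLXIP and MLXIPL, which encode the glucose-sensing factors that act on fatty acid genes beside SREBF1, were chosen after their values were seen. MLXIP had 254, 276 and 265 CPM in parental, 134, 137 and 130 in LIM1215-R1 and 148, 139 and 149 in LIM1215-R2 libraries. MLXIPL had 56.4, 69.8 and 75.5 CPM in parental, 32, 36.3 and 35.4 in LIM1215-R1 and 35.4, 33.2 and 43 in LIM1215-R2 libraries. Both were lower in each resistant line without overlap, with log2 fold changes of -0.99 ± 0.05 and -0.87 ± 0.05 for MLXIP (adjusted p = 2.37e-15 and 3.36e-14, edgeR's quasi-likelihood test) and -0.96 ± 0.09 and -0.86 ± 0.09 for MLXIPL (adjusted p = 2.45e-09 and 1.78e-08). Between the resistant lines neither MLXIP nor MLXIPL passed (adjusted p = 0.125 and 0.569).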
